A study of Mus musculus with 8 samples.

Results

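The cytosolic ribosomal protein genes form a set of 85 genes among the 26263 genes counted in these libraries. They were picked by symbol (*Rpl* or *Rps* with a number, *Rplp0* to *Rplp2*, and *Rpsa*), and the set was taken up because the read counts of *Rplp0* and *Rpl30* were lower by day 12. The difference between stages was therefore used in choosing the set and is given below for its members as a description, with no p-value and no count of calls. Of the 85 genes, 76 encode the canonical proteins of the cytosolic ribosome (43 of the large subunit, 30 of the small subunit and 3 of the P stalk) and 9 carry the symbol of another member with a suffix for a paralogue. In GENCODE, *Rpl32l* is annotated as a transcribed processed pseudogene. The symbols do not take in *Rps3a1*, *Rack1* and *Fau*, which also encode ribosomal proteins.

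PolyA RNA was sequenced from mouse embryonic stem cells (ESCs) and from neural precursor cells (NPCs), taken after 12 days of *in vitro* corticogenesis, a protocol that drives ESCs towards cells of the cerebral cortex. Both stages were sampled from B/J cells (line BJE2, from a C57BL/6 by JF1 cross) and J/B cells (line JBE6, from the reciprocal cross), with 2 libraries in each of the 4 groups. Each cross is represented by 1 line, so that cross and line cannot be told apart. The labels do not say that the 2 replicates of a group were separate cultures, and p-values then measure only the spread between these libraries, which may be technical.

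Each ribosome is built from a small subunit, which reads the mRNA, and a large subunit, which forms the peptide bond and bears the P stalk, where elongation factors are recruited. Ribosomal protein genes are expressed in every cell and are usually regulated together, since the subunits are assembled from fixed numbers of each protein. Their mRNAs begin with a C followed by an unbroken run of pyrimidines, the 5′ terminal oligopyrimidine motif, through which translation is controlled by mTOR and LARP1. Mouse and human genomes also contain many processed pseudogenes of these genes, copied from their mRNAs.

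The number of reads counted on genes ranged from 22537138 to 32706015. The labels were checked on *Pou5f1*, a pluripotency factor, which was found at 1351 to 1950 CPM (a count scaled to the reads on genes in that library) in ESCs and at 19.5 to 58.9 CPM in NPCs, and on *Nes*, a neural precursor gene, found at 12.5 to 40.9 CPM in ESCs and 75.9 to 297 CPM in NPCs. All 8 pluripotency markers fell and 5 of 6 neural precursor markers rose in NPCs, while *Pax6*, a marker of cortical precursors, did not pass the test (log2 fold change 1.77, adjusted p = 0.0606, edgeR). Markers of other cells were also higher in NPC libraries. The 8 trophoblast markers all rose, from a summed level of 11.2 to 71.2 CPM in ESCs to 1360 to 3520 CPM in NPCs, and *Tpbpa* and *Pappa2* were at 0 in the 4 ESC libraries. Of 7 fibroblast markers 6 rose, from 7.32 to 67.2 CPM to 837 to 2080 CPM. Among 5 neuron markers 4 rose and 1 fell, and the 4 endoderm markers tested all rose, with *Afp* at 0 in the ESC libraries. The libraries were made with either of 2 kits and read on either of 2 instruments, and the labels do not say which library had which.

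Ribosomal protein genes held a smaller part of the transcriptome in NPCs than in ESCs. In ESCs the 85 genes took 8.01% and 7.27% of the reads counted on genes in the B/J libraries, and 7.93% and 6.80% in the J/B libraries. In NPCs the B/J libraries gave 5.26% and 4.76% and the J/B libraries gave 5.24% and 3.80%. The lowest ESC library lay above the highest NPC library, and the means were 7.50% ± 0.574 and 4.76% ± 0.684 (SD, n = 4 libraries each). The share does not depend on a normalization factor. In bulk RNA a smaller share cannot separate fewer cells with high levels from less RNA of these genes in each cell. The part that the trophoblast and fibroblast markers, which move with the stage, have in this difference was not tested. The share of reads on no feature also moved with it, at 5.76% to 8.44% in ESCs and 7.71% to 10.9% in NPCs, and was the higher of the pair in replicate 2 of every group, where the share of the set was the lower. Its part was not tested either.

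**Figure D1:**
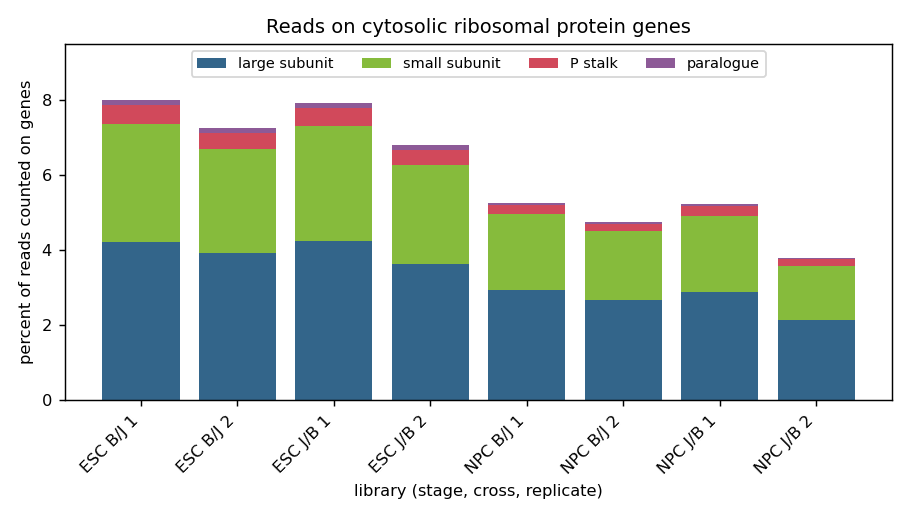
Percent of the reads counted on genes that fell on the 85 ribosomal protein genes, by library, stacked by class of gene. The 4 ESC libraries stand between 6.80% and 8.01% and the 4 NPC libraries between 3.80% and 5.26%, with NPC J/B replicate 2 the lowest.

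Both subunits shared in this. The ratio of reads on small subunit genes to reads on large subunit and stalk genes lay between 0.637 and 0.665 in the ESC libraries and between 0.632 and 0.643 in the NPC libraries, and the ranges overlapped.

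Of the 85 genes, 84 had enough reads for the fit across all genes, and *Rpl32l* did not. The log2 fold change of NPCs against ESCs, normalized by TMM (a scaling that sets the bulk of genes as reference), was below 0 for all 84, with a median of -1.06 and quartiles of -1.28 and -0.92. Over all 16399 genes tested the median was 0.17, with quartiles of -0.85 and 1.84. The median was -1.002 within B/J and -1.12 within J/B.

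The size of the difference depended on what the libraries were scaled to. The median was -0.58 on library totals, where 80 of 84 members were below 0, and -0.44 when scaled to *Gapdh*, *Gusb* and *Tbp*, where 77 of 84 were below 0. The median of all genes shifted with the scaling, from 0.17 with TMM to 0.65 on library totals and 0.80 with the 3 reference genes, among which *Gapdh* (-1.42 with TMM) and *Tbp* (-0.69) also fell in NPCs. A scaling moves all genes alike, so the distance between the 2 medians (-1.23 to -1.24) is the same in all 3 by construction and says nothing of which scaling holds. In CPM, the NPC libraries were all lower than the ESC libraries for 60 of the 85 members, higher for 0 and overlapping for 25. Over all genes tested, 20.5% were lower without overlap and 46.7% higher.

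**Figure D2:**
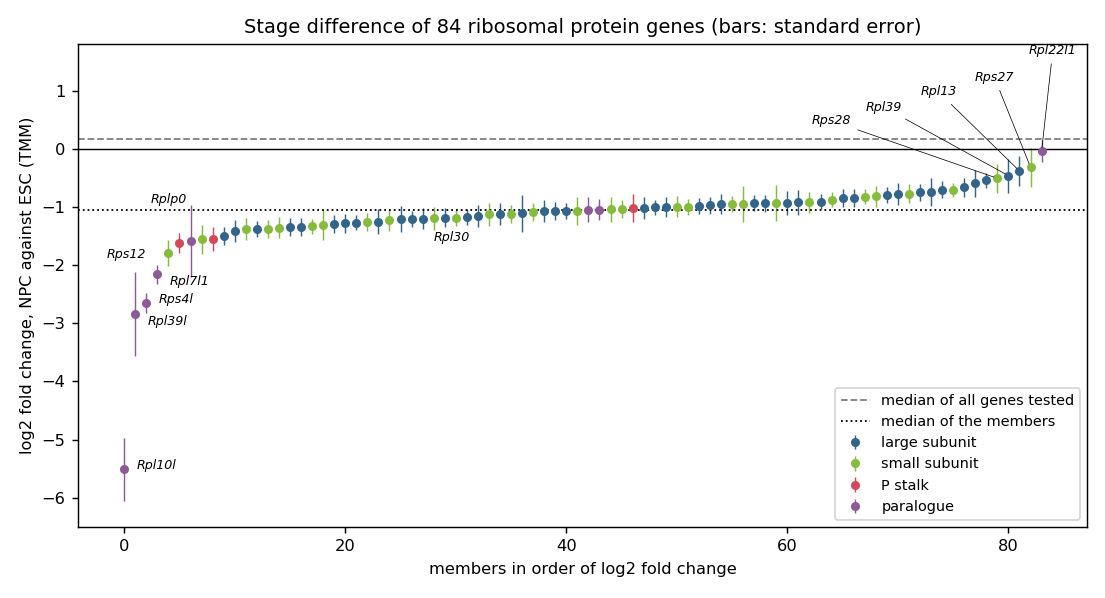
Log2 fold change of NPCs against ESCs (TMM) with its standard error for the 84 members that passed the filter, in order, coloured by class. The canonical genes run from -1.79 (*Rps12*) to -0.32 (*Rps27*), and the paralogues from -5.52 (*Rpl10l*) to -0.04 (*Rpl22l1*).

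The canonical genes lay in a narrow band. Their log2 fold changes had an SD of 0.287 over the 76 genes. The medians were -1.01 for the large subunit, -1.06 for the small subunit and -1.55 for the P stalk.

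The P stalk genes are described first because *Rplp0* led to the choice of the set. *Rplp0*, the base of the stalk, was at 2945 and 2516 CPM in the ESC B/J libraries and 2876 and 2482 CPM in ESC J/B. Its NPC levels were 1240 and 1176 CPM (B/J), then 1467 and 1018 CPM (J/B). Every NPC library was below every ESC library, and the log2 fold change was -1.62 ± 0.167 (SE). *Rplp1*, which pairs with *Rplp2* on the stalk, went from 1224 to 1552 CPM to 481 to 762 CPM. *Rplp2* went from 421 to 506 CPM to 204 to 400 CPM, with log2 fold changes of -1.55 ± 0.201 for *Rplp1* and -1.03 ± 0.239 for *Rplp2*. None of the 3 overlapped between stages, and NPC J/B replicate 2 was the lowest library for each.

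*Rpl30*, a large subunit protein and the other gene that led to the set, was at 622 and 468 CPM in ESC B/J, and 593 and 442 CPM in ESC J/B. Its NPC levels were 361 and 324 CPM (B/J), then 339 and 266 CPM (J/B). Replicate 2 was the lower library in each of the 4 groups, and the log2 fold change was -1.21 ± 0.181. *Rpsa*, a small subunit protein also known as the laminin receptor, ranged from 2152 to 2874 CPM in ESCs and from 1026 to 1555 CPM in NPCs, without overlap (log2 fold change -1.39 ± 0.188).

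The largest difference among canonical genes was seen for *Rps12*, a protein of the head of the small subunit. It was at 1908 and 1290 CPM in ESC B/J, 1636 and 1299 CPM in ESC J/B, 701 and 600 CPM in NPC B/J, and 726 and 456 CPM in NPC J/B, without overlap (log2 fold change -1.79 ± 0.223). The smallest differences were those of *Rps27*, *Rpl13*, *Rpl39* and *Rps28*, for which ESC and NPC libraries overlapped. For *Rps27*, of the small subunit, the log2 fold change of -0.32 with TMM became 0.15 on library totals and 0.29 with the 3 reference genes, and it was -0.03 without ESC J/B replicate 2. *Rpl13*, a large subunit protein, was at 534 and 810 CPM in ESC B/J, 501 and 733 CPM in ESC J/B, 857 and 596 CPM in NPC B/J, and 828 and 455 CPM in NPC J/B. Its log2 fold change of -0.38 with TMM became 0.08 on library totals and 0.21 with the 3 reference genes, and leaving out each library in turn gave -0.65 (without NPC J/B replicate 1) to -0.20 (without NPC J/B replicate 2). *Rpl39*, a short protein of the exit tunnel, had a log2 fold change of -0.46 with TMM and 0.15 with the reference genes, and -0.77 to -0.26 when the same libraries were left out. *Rps28*, a small subunit protein near the mRNA channel, had -0.51 with TMM, -0.04 on library totals and 0.08 with the reference genes, and lay between -0.73 (without NPC J/B replicate 1) and -0.32 (without ESC J/B replicate 2).

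*Rps27* stood apart in its level. This small subunit gene received 48 to 116 reads per library, or 2.10 to 4.38 CPM, while *Rps7*, of the same subunit, received 610 to 981 CPM. Of 203 windows of 50 bases along the *Rps27* coding sequence, all (100%) also occur elsewhere in the GRCm39 genome, at 11 loci. For *Rps7* 95.3% of the windows occur elsewhere, at 16 loci. The authors set a minimum mapping quality of 20, which TopHat2 does not give to reads that fit several loci equally well. Over the 84 members with a coding sequence, the median share of such windows was 86.9%, and for 27 canonical genes it was 100%. All of these but *Rps27* had over 1000 reads in every library. Repeated windows leave the counts of single members uncertain, and their part in the differences between genes was not tested. The 10 rows of the files named as pseudogenes of the set summed to 387 to 618 CPM in ESCs and 217 to 298 CPM in NPCs.

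Differences in the make-up of the ribosomal protein mRNA pool were looked at by giving each member as a share of the members' reads in its library, which removes the common shift. Of the 84 members with reads in every library, 14 had a lower share in all NPC libraries than in any ESC library, 21 had a higher share, and 49 overlapped. *Rplp0* held 3.46% to 3.68% of the members' reads in ESCs and 2.36% to 2.80% in NPCs. *Rps12* held 1.77% to 2.38% in ESCs and 1.199% to 1.39% in NPCs. In the other direction, *Rps7*, a small subunit protein, held 1.14% to 1.35% in ESCs and 1.39% to 1.60% in NPCs. The share was lower without overlap for 2 of 3 stalk genes, 5 of 43 large subunit genes and 4 of 30 small subunit genes, and higher for 0, 13 and 7 of them. These shares come from the same contrast as the choice of the set and are given without a test. They are defined for members only, so the counts have no share over all genes beside them. Within a library they add up to the whole, so that a lower share of some members raises that of others.

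Stretches near the annotated start of a few members are shown because the pyrimidine run is the feature these mRNAs are known for. RefSeq promoters (250 bases before to 50 bases after the start, table build GRCm38.p6) were matched by symbol for 64 of the 85 members. Among the other 21 were *Rpl3*, *Rpl7*, *Rpl8*, *Rpl17*, *Rpl21*, *Rpl23a*, *Rpl29*, *Rpl30*, *Rpl32*, *Rpl36*, *Rplp1*, *Rps4l*, *Rps14*, *Rps20*, *Rps27a* and *Rps29*. Each line below gives 30 bases, 5′ to 3′ on the strand of the gene, with the longest run of C and T that begins with a C, within 50 bases of the start on either side, in capitals. Counted from the annotated start, the run begins at 9 (*Rps12*), -12 (*Rpl7a*), -2 (*Rps18*), -4 (*Rplp2*) and -16 (*Rpl13*). It begins at 14 (*Rplp0*), -35 (*Rps28*), -32 (*Rpl7l1*) and -10 (*Rpl10l*). The lines are placed on the run and not on the start, and those of *Rplp0*, *Rps28* and *Rpl7l1* do not hold the start. The first 5 genes have long runs, from *Rps12* with the largest difference to *Rpl13* with one of the smallest, and the last 4 have short runs.
Rps12: accgccggCCTTTTCCCCTgccgccgccga
Rpl7a: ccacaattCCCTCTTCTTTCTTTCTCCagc
Rps18: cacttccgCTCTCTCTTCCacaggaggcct
Rplp2: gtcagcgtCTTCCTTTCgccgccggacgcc
Rpl13: tgacgtcaCTTCCCTTTCgcctgattttga
Rplp0: gcctggttCTCCTataaaaggcacacgcgg
Rps28: ggtgacgaCTCTgtcccgaggattcctggg
Rpl7l1: gaggcgggCCTCTCTaccccgcccggtgag
Rpl10l: aaatttggCCTCCattttgcggctggcggt

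In GRCm39 these stretches were found on the minus strand at chr10:23663078-23663107 (*Rps12*) and on the plus strand at chr2:26800799-26800828 (*Rpl7a*). Those of *Rps18* (minus) and *Rplp2* (plus) are at chr17:34174620-34174649 and chr7:141027552-141027581. *Rpl13* (plus) is at chr8:123829065-123829094 and *Rplp0* (plus) at chr5:115697531-115697560. *Rps28* (minus), *Rpl7l1* (minus) and *Rpl10l* (minus) are at chr17:34043550-34043579, chr17:47093593-47093622 and chr12:66331164-66331193.

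A run of 8 or more bases was found for 54 of the 64 members (84.4%), beside 32% of the 27025 genes in the RefSeq table. It was found for 48 of 56 canonical members and 6 of 8 paralogues, and the longest run was 20 bases. The 10 members without one were *Rplp0*, *Rpsa*, *Rps3*, *Rps4x*, *Rps13*, *Rps28*, *Rpl23*, *Rpl24*, *Rpl7l1* and *Rpl10l*. The median log2 fold change between stages was -1.03 for the 48 canonical members with a run and -1.11 for the 8 without, and their ranges (-1.79 to -0.32 and -1.62 to -0.51) overlapped. Both groups rest on the annotated starts, whose placement was not tested. The letters CCGGAAG, a core of ETS family sites, were found on either strand of the 300-base promoter of 39.1% of members and 9.93% of all genes. AAGATGGC, a core of YY1 sites, was found for 9.38% of members and 3.19% of all genes, and CACGTG, an E-box, for 9.38% and 8.09%. TATAAA was found for 12.5% of members, *Rplp0* among them, and 15.7% of all genes. In *Rplp0* it can be seen beside the short run above, where it lies after the annotated start. The first 2 of these words share the letters AAG and can overlap. A match is a description of the letters and not a site.

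The paralogues were set beside the genes they resemble, since some paralogues can take the place of the canonical protein in some tissues. Whether these do was not tested. Their coding sequences share no window of 50 bases with the gene they resemble in any of the 8 pairs with a coding sequence. Levels of *Rps4l*, *Rpl7l1* and the genes they resemble are given as CPM per kb of coding length. Levels of the other pairs are given in reads or CPM. Shares of a pair are shares of reads, without regard to coding length.

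*Rps4l*, a copy with 1 exon of the X-linked *Rps4x*, was the most abundant paralogue in ESCs. Its level was 747 and 634 CPM per kb in ESC B/J, 684 and 576 CPM per kb in ESC J/B, 218 and 162 CPM per kb in NPC B/J, and 116 and 110 CPM per kb in NPC J/B. The NPC libraries were all below the ESC libraries, and within NPCs both J/B libraries were below both B/J libraries. *Rps4x* was at 1890 to 2240 CPM per kb in ESCs and 1120 to 1370 CPM per kb in NPCs, so that *Rps4l* went from 24.1% ± 0.692 to 10.5% ± 2.98 of the reads of the pair (SD, n = 4). Its log2 fold change was -2.65 ± 0.167, against -1.19 for *Rps4x*.

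*Rpl7l1* also stood lower than the gene it resembles. It was at 446 to 524 CPM per kb in ESCs and 136 to 191 CPM per kb in NPCs, and *Rpl7* at 1910 to 2560 and 1110 to 1330 CPM per kb. The share of *Rpl7l1* in the reads of the pair went from 16.6% ± 1.30 to 10.1% ± 1.08, without overlap.

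*Rpl10l*, a gene otherwise known from the testis, had the lowest fold change of the set. It received 1229 and 608 reads in ESC B/J, 2673 and 1009 reads in ESC J/B, 55 and 57 reads in NPC B/J, and 58 and 17 reads in NPC J/B. The ESC libraries differed among themselves, with J/B replicate 1 the highest at 119 CPM and B/J replicate 2 the lowest at 22.2 CPM, and all lay above the NPC libraries at 0.664 to 2.14 CPM. The log2 fold change was -5.52 ± 0.538, and -4.97 to -5.98 when each library was left out in turn. *Rpl39l*, also known from the testis, received 101 and 43 reads in ESC B/J, 672 and 129 reads in ESC J/B, 47 and 50 reads in NPC B/J, and 54 and 9 reads in NPC J/B. ESC J/B replicate 1 stood far above the others, the stages overlapped, and the log2 fold change of -2.84 ± 0.717 became -1.89 without that library. The same library had 67.2 CPM of fibroblast markers, against at most 10.2 CPM in the other ESC libraries, and the part of this in the level of *Rpl39l* was not tested.

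*Rpl32l* received 1 read in ESC B/J replicate 1 and 4 reads in ESC J/B replicate 1. The other 6 libraries, the 4 NPC libraries among them, had 0 reads, which allows up to 0.0917 to 0.117 CPM per NPC library (3 counts, counting error only). No fold change is given. *Rpl3l*, known from striated muscle, received 4 to 31 reads per library, and its share of the reads of its pair with *Rpl3* stayed at 0.0330% ± 0.0184 in ESCs and 0.0260% ± 0.00955 in NPCs.

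*Rpl22l1* had the highest fold change of the set. Its level was 48.6 and 80.4 CPM in ESC B/J, 60.9 and 75.5 CPM in ESC J/B, 104 and 83.7 CPM in NPC B/J, and 96.5 and 73.5 CPM in NPC J/B. The stages overlapped, and its log2 fold change of -0.04 ± 0.193 with TMM was 0.43 on library totals and 0.57 with the 3 reference genes. *Rpl22*, the RNA-binding large subunit protein it resembles, was at 269 to 525 CPM in ESCs and 276 to 369 CPM in NPCs (log2 fold change -0.75). The share of *Rpl22l1* in the reads of the pair was 13.3% to 18.5% in ESCs and 18.5% to 27.4% in NPCs, where NPC B/J replicate 2 and ESC J/B replicate 1 were close to each other. *Rpl36al* and *Rps27l* lay near the median of the set, each with a log2 fold change of -1.05. *Rpl36al* held 42.8% ± 5.43 of its pair with *Rpl36a* in ESCs and 44.2% ± 4.93 in NPCs, and *Rps27l*, known as a target of p53, was at 96.3 to 151 CPM in ESCs and 65.5 to 107 CPM in NPCs. The share of *Rps27l* in its pair, 97.9% ± 0.663 and 96.5% ± 0.913, carries the low count of *Rps27* described above.

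**Figure D3:**
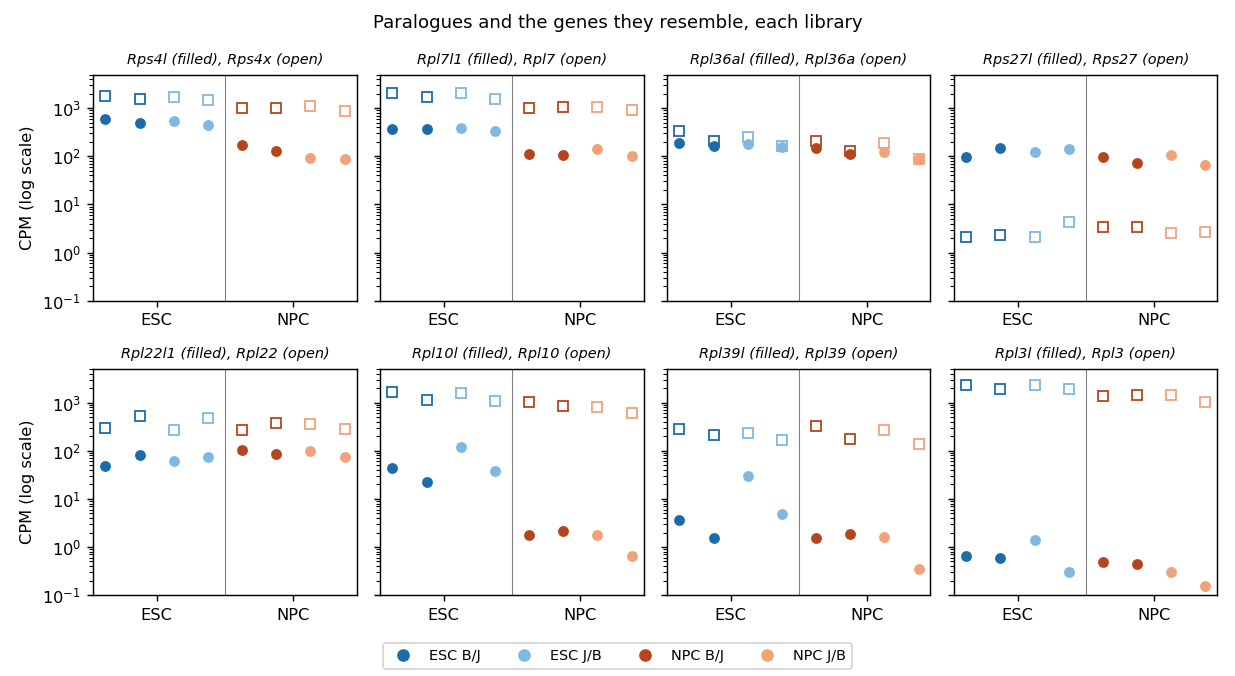
CPM on a log scale for 8 paralogues (filled circles) and the genes they resemble (open squares) in each library, with ESC libraries left and NPC libraries right of the line. *Rpl10l* goes from 22.2 to 119 CPM in ESCs to 0.664 to 2.14 CPM in NPCs, *Rpl22l1* overlaps between stages, and *Rpl39l* is high in ESC J/B replicate 1 alone.

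Differences between the reciprocal crosses, which the choice of the set did not use, were then tested within each stage. No member passed the test between J/B and B/J in ESCs. At an adjusted p under 0.05 in edgeR, 0 of 84 members and 0 of 16399 genes (0%) were called. DESeq2 called 0 members and 10 genes, and limma-voom 0 members and 0 genes. At an unadjusted p under 0.05 there was 1 member, beside 2.11% of all genes. The member was *Rpl39l*, at a log2 difference (J/B minus B/J) of 2.73 with a 95% interval of 0.42 to 5.04 (adjusted p = 1, edgeR), which became 0.82 without ESC J/B replicate 1. Next in order of p came *Rpl10l* (1.23, and 0.11 without that library) and *Rpl14*, a large subunit protein (-0.21). For *Rplp0* the difference was -0.06 with a 95% interval of -0.60 to 0.47, and for *Rpl30* -0.11 with an interval of -0.70 to 0.48. The median difference over the members was -0.10, beside 0.003 over all genes. Without ESC J/B replicate 2 it was 0.04, and without ESC B/J replicate 1 it was 0.02.

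In NPCs the members also passed no test between crosses. In edgeR 0 of 84 members were called, and 1 gene of 16399 (0.0061%), the long non-coding RNA gene *Firre*, named after its values were seen. DESeq2 called 0 members and 70 genes, and limma-voom 0 members and 1 gene. In edgeR 0 genes were called on library totals, with the 3 reference genes or with the replicate number as a paired term. With that term within each stage, added after seeing the data, 4 were called. At an unadjusted p under 0.05 there was 1 member, beside 6.40% of all genes. With the replicate number as a paired term there were 5 members, beside 10.8% of all genes. With that term within each stage there were 11, beside 18.7%. The 1 member without a paired term was *Rps4l*, lower in J/B by a log2 difference of -0.80 with a 95% interval of -1.32 to -0.28 (adjusted p = 0.734, edgeR). Both J/B libraries were below both B/J libraries, and the difference lay between -0.56 and -1.04 when each library was left out in turn. *Rps14*, of the small subunit, was among the next in order of p (-0.31). The difference of *Rplp0* was -0.01 with an interval of -0.54 to 0.52. The median over the members was -0.22, beside 0.01 over all genes, and 81 of 84 were below 0, beside 48.7% of all genes. NPC J/B replicate 2 decided that value, since the median was 0.004 without it, with 41 of 84 below 0, and -0.49 without NPC J/B replicate 1. Among the NPC libraries, J/B replicate 2 also had the highest share of reads on no feature (10.9%) and the highest neuron markers (1580 CPM, against 269 to 1020 CPM). Its fibroblast markers were the highest too (2080 CPM, against 837 to 1970 CPM), and its trophoblast markers the lowest (1360 CPM, against 1940 to 3520 CPM). The part of these was not tested. With the 3 reference genes the median over the members was -0.002.

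Whether the stage difference itself differed between crosses was tested by the interaction. In edgeR 0 of 84 members and 0 of 16399 genes (0%) were called, with 1 member and 3.49% of genes at an unadjusted p under 0.05, while DESeq2 called 0 members and 11 genes and limma-voom 0 members and 0 genes. First in order of p came *Rpl39l* (-3.52, adjusted p = 1 in edgeR), *Rpl10l* (-1.94) and *Rps4l* (-0.64). Single libraries moved these values. *Rpl39l* was -1.61 and *Rpl10l* was -0.83 without ESC J/B replicate 1, and leaving out each library in turn gave -5.06 to -1.61, -2.86 to -0.83 and -0.87 to -0.40 for the 3 genes. The value of *Rps4l* was -0.40 when NPC B/J replicate 1 was left out. The median over the members was -0.12, with 74 of 84 below 0, beside -0.02 over all genes, and it turned to 0.12 with the reference genes, to 0.04 without ESC J/B replicate 1 and to 0.09 without NPC J/B replicate 2. In this fit, which does not use the replicate number, the median standard error of canonical genes was 0.325, and for *Rplp0* the 95% interval was -0.70 to 0.81.

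Replicates of a group differed in a way that both crosses shared. The median of replicate 2 minus replicate 1 over the 76 canonical genes was -0.20 in ESC B/J, -0.32 in ESC J/B, -0.19 in NPC B/J and -0.44 in NPC J/B. The SD of that difference over the genes was 0.307 and 0.336 in ESCs, and 0.224 and 0.219 in NPCs, while the SD of J/B minus B/J within 1 replicate number was 0.074 to 0.133. The same genes departed in both crosses. In ESCs 57 of 76 genes were lower and 11 higher in replicate 2 of both crosses, and in NPCs 70 were lower and 0 higher. A shift common to a pair of libraries moves these genes together, so they are not separate observations. The same counts over all genes are not given here.

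*Rps19*, a small subunit protein, was at 684 and 428 CPM in replicates 1 and 2 of ESC B/J, and at 726 and 418 CPM in those of ESC J/B. Its NPC levels were 530 and 342 CPM (B/J), then 497 and 265 CPM (J/B), so that replicate 2 was lower in all 4 groups. *Rpl36a*, a large subunit protein on the X chromosome, had the largest replicate spread of the canonical genes (0.565 on the log2 scale), with 337 and 203 CPM in ESC B/J, 249 and 165 CPM in ESC J/B, 210 and 130 CPM in NPC B/J, and 187 and 87.2 CPM in NPC J/B. *Rps7*, of the small subunit, was among the genes with the smallest spread (0.111). *Rpl13* and *Rps28* were higher in replicate 2 of both ESC groups and lower in replicate 2 of both NPC groups, as were 9 canonical genes in all. For *Rpl13* the log2 differences were 0.54 and 0.46 in ESCs, and -0.57 and -0.88 in NPCs. For *Rpl22* they were 0.79 and 0.72 in ESCs, and 0.37 and -0.31 in NPCs.

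Across the 76 genes, the replicate differences of B/J and J/B had a Pearson correlation of 0.882 in ESCs and 0.819 in NPCs. Across stages it was 0.111 to 0.251. Over all genes it was 0.518 and 0.587 within a stage. The points share library depth and a common scaling factor within each pair of libraries, genes are not independent replicates, and no p is given. Markers of cell types also differed between the replicates. Neuron markers summed to 269 and 1020 CPM in replicates 1 and 2 of NPC B/J and to 778 and 1580 CPM in those of NPC J/B, and trophoblast markers to 3520 and 1940 CPM and to 1990 and 1360 CPM. Others moved in opposite directions in the crosses. Fibroblast markers summed to 1970 and 1510 CPM in NPC B/J and to 837 and 2080 CPM in NPC J/B. Neural precursor markers summed to 572 and 1070 CPM and to 1450 and 1320 CPM. In ESCs pluripotency markers summed to 6580 and 4910 CPM in B/J and to 7260 and 4350 CPM in J/B. Whether the replicate numbers mark a shared kit, instrument or day is not given in the labels. The part of these was not tested.

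**Figure D4:**
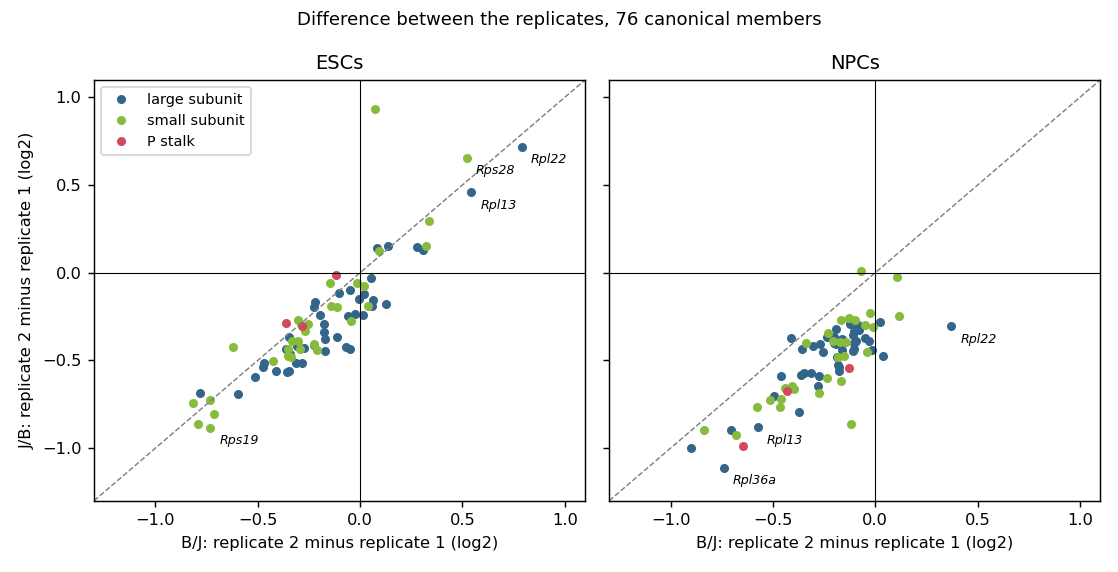
Log2 difference of replicate 2 minus replicate 1 for the 76 canonical genes, B/J on the horizontal and J/B on the vertical axis, in ESCs (left) and NPCs (right), with the line of equality dashed. Most genes lie below 0 in both crosses, and *Rpl13* moves from the upper right in ESCs to the lower left in NPCs.

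The other genes of the pathway were not used in choosing the set, but their lists were chosen with earlier results of these data known. Their stage differences were tested, with the lists read beside the 31.9% of all genes that were lower and the 37.5% that were higher in NPCs at an adjusted p under 0.05 in edgeR. The same shares of all genes were 20.9% and 48.9% on library totals, and 17.2% and 51.6% with the 3 reference genes. The trophoblast and fibroblast markers given above move with the same contrast, and their part in the differences of these lists was not tested. All 3 ribosomal proteins with other symbols fell. *Rack1*, a scaffold on the small subunit, went from 1958 ± 285 to 1137 ± 190 CPM (log2 fold change -1.27 ± 0.177, adjusted p = 0.000443). *Fau*, which yields a small subunit protein, had a log2 fold change of -0.63 (adjusted p = 0.0143). The call of *Fau* was lost on library totals (-0.15), with the 3 reference genes and without ESC B/J replicate 1 or NPC B/J replicate 2 (-0.53 and -0.56).

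Genes of ribosome biogenesis fell throughout. All 52 fell and 0 rose, with a median log2 fold change of -1.96 and a range of -2.82 to -0.64. *Polr1b*, a subunit of RNA polymerase I, went from 181 ± 17.0 to 35.6 ± 3.76 CPM (-2.82 ± 0.144, adjusted p = 1.16e-05). *Heatr1*, which acts in early processing of ribosomal RNA, fell by 2.79 on the log2 scale. *Npm1*, an abundant nucleolar chaperone, went from 3485 ± 278 to 1125 ± 228 CPM, and *Fbl*, the nucleolar methyltransferase, from 345 ± 23.6 to 113 ± 30.9 CPM, with log2 fold changes of -2.11 and -2.08. On library totals and with the 3 reference genes 48 of the 52 fell.

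Of 41 translation factors tested, 38 fell, 1 rose and 2 did not pass the test, with a median of -1.11. *Eif2s2*, a subunit of the initiation factor that carries the first tRNA, fell by 2.38 on the log2 scale, and *Eif5a*, a factor of elongation, by 1.88. The elongation factors *Eef1a1* and *Eef2* went from 14860 ± 2450 to 9665 ± 969 CPM and from 5411 ± 785 to 3587 ± 305 CPM (-1.11 and -1.08). The gene that rose was *Eef1a2*, the form of *Eef1a1* found in neurons and muscle, from 0.886 ± 0.703 to 6.68 ± 6.17 CPM (2.19 ± 0.766, adjusted p = 0.0337). This call was lost without ESC B/J replicate 1 or 2, ESC J/B replicate 1, NPC B/J replicate 2 or NPC J/B replicate 2, with values of 1.60 to 2.58. *Tpt1*, whose mRNA also begins with a pyrimidine run, was at 1260 to 1410 CPM in ESCs and 1530 to 1720 CPM in NPCs. It did not pass the test with TMM (-0.23, adjusted p = 0.1) and turned to 0.25 on library totals (not called) and to 0.40 with the reference genes, where it was called higher at an adjusted p under 0.05 in edgeR. With the reference genes 23 of the translation factors fell and 3 rose.

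Among 18 regulators of ribosomal protein synthesis, 12 fell, 2 rose and 4 did not pass the test, with a median of -0.67. This balance depended on the scaling, since 6 fell and 4 rose on library totals, and 4 fell and 4 rose with the 3 reference genes. *Larp1*, which binds the pyrimidine run, went from 566 ± 92.6 to 366 ± 35.5 CPM (-1.11, adjusted p = 0.000338). *Mtor* went from 131 ± 11.1 to 116 ± 8.74 CPM (-0.66, adjusted p = 0.00264), and its call was lost on library totals (-0.18) and with the reference genes (-0.02). *Trp53* fell by 2.60 on the log2 scale. *Mycn*, which drives ribosome biogenesis in precursor cells, was at 143 and 326 CPM in ESC B/J, 27.9 and 318 CPM in ESC J/B, and 34.2 to 103 CPM in NPCs, so that the stages overlapped. Its log2 fold change was -2.05 (adjusted p = 0.0272), and the call was lost on library totals (-1.59), with the reference genes (-1.46), in limma-voom (-1.67), with no filter on low counts (-2.04), and without any of ESC B/J replicate 2, ESC J/B replicate 2, NPC B/J replicate 1 and either NPC J/B library, with -0.76 without ESC J/B replicate 2. *Myc* (-0.98, adjusted p = 0.0286) lost its call on library totals (-0.50), with the reference genes (-0.35), and without ESC B/J replicate 1 or 2, ESC J/B replicate 1, NPC B/J replicate 2 or NPC J/B replicate 2, with values from -0.58 to -0.99. Of the 2 that rose, *Mycl* went from 14.8 ± 4.12 to 83.0 ± 28.7 CPM (1.97, adjusted p = 0.000576). *Rps6kb2*, a kinase of ribosomal protein S6, had 0.45 (adjusted p = 0.0372) and lost its call when any library but ESC B/J replicate 1 was left out, with 0.37 to 0.50.

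Of 78 mitochondrial ribosomal proteins, which serve the separate ribosome of mitochondria, 60 fell, 1 rose and 17 did not pass the test, with a median of -1.07. *Mrpl45* went from 116 ± 6.61 to 38.7 ± 4.72 CPM and *Mrpl15* from 109 ± 6.90 to 39.1 ± 6.81 CPM (-2.07 and -1.96). *Mrps6* was the one that rose, from 6.58 ± 1.53 to 28.8 ± 4.24 CPM (1.66, adjusted p = 0.000502). With the 3 reference genes 37 fell and 6 rose.

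**Figure D5:**
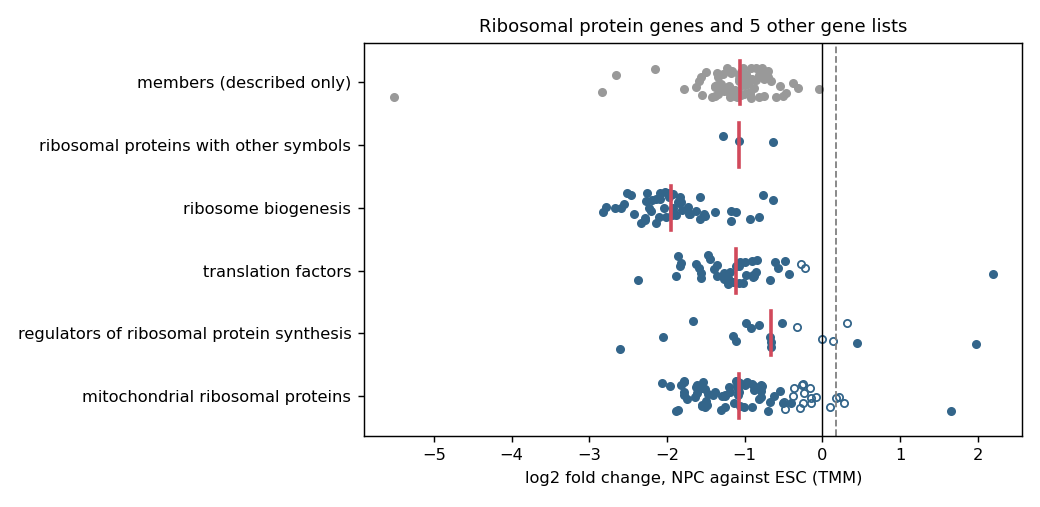
Log2 fold change of NPCs against ESCs (TMM) for each gene of 5 lists and for the members, with filled points at an adjusted p under 0.05, open points above it, grey points for the members (described only), red bars at the medians and the dashed line at the median of all genes (0.17). The medians are -1.06 for the members and -1.96 for ribosome biogenesis.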

How the data were processed

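Counts of reads per gene were deposited by the authors for each of the 8 libraries, without normalization. Per the study's methods and the submitters' processing notes, paired-end reads were aligned with TopHat2 to a masked mm39 genome with a refGene annotation and kept as proper pairs of mapping quality 20 or more; HTSeq, DESeq2 and edgeR are also named, without versions. How strand was used in counting was not stated. The 5 closing rows, for reads without a gene, were left out; reads on no feature made up 5.76% to 10.9% of a library.

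The members and gene lists were chosen with earlier results of these data known. Counts were fitted in R 4.3.3 with edgeR 4.0.16 (TMM, filterByExpr with a minimum count of 10, robust quasi-likelihood, 4 group means, common dispersion 0.113), with Benjamini-Hochberg adjustment over the 16399 genes tested and a threshold of 0.05. CPM were taken on library totals. Replicates of a group differed by more than sampling noise (chi-square over degrees of freedom 60.8 to 85.4). DESeq2 1.42.0, limma 3.58.1 (voom), other scalings, no filter, a replicate block and leaving out each library in turn were the alternatives. Scripts were tested on simulated data. Gene models came from GENCODE (GRCm39, the files' build). Exact occurrences of 50-base windows of the coding sequence were searched on both strands of that genome.

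Named genes were *Rplp0*, *Rpl30*, *Rplp1*, *Rplp2*, *Rpsa*, the paralogue pairs, the 5 members with the lowest and the 5 with the highest fold change, the 3 with the largest and the 3 with the smallest replicate spread, the 3 with the lowest p in each comparison of crosses, and, in each list, the genes with the largest changes among those called with a mean of at least 1 CPM and a few fixed genes. *Rps18*, *Rpl7a* and *Rps19* were added after their values were seen. Intervals are at the 95% level. Allelic expression was not analysed here. Some genes are not reported here.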

Additional observations from a re-analysis of the deposited data

Results flagged for a closer look

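Among 78 comparisons of the 4 libraries of a stage (the named members, the share of reads on the set and the paralogue shares), 3 had a library whose gap to its nearest neighbour passed Dixon's 95% critical value for its share of the range. Chance gives about 1 in 20. *Rpl39l* was at 29.8 CPM in ESC J/B replicate 1 and at 1.57 to 4.87 CPM in the other ESC libraries. *Rps27* was at 4.38 CPM in ESC J/B replicate 2 and at 2.10 to 2.30 CPM in the others. *Rpl14* was at 372 CPM in NPC J/B replicate 2, the library with the lowest share of reads on the set, and at 483 to 505 CPM in the other NPC libraries.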

How the results depend on the processing

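The 0 members called for J/B against B/J in ESCs, in NPCs and for the interaction stayed at 0 under every alternative run. The replicate number as a paired term (replicate block) gave a members' median of -1.07 between stages and 0 members called between crosses, and a block within each stage, added after seeing the data, also gave 0. At an unadjusted p under 0.05 the members counted 3 in ESCs, 5 in NPCs and 3 for the interaction with the former (2.78%, 10.8% and 5.59% of all genes), and 4, 11 and 3 with the latter (5.33%, 18.7% and 10.5%), beside 1 in each without a block. The numbers do not mark a batch in the labels. The members' median was -0.583 on library totals and -0.442 with *Gapdh*, *Gusb* and *Tbp*, and -1.20 to -0.95 when each library was left out.

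With the 3 reference genes the members' median between crosses in NPCs was -0.002 (-0.221 with TMM) and that of the interaction 0.117 (-0.125 with TMM). Leaving out each library gave -0.494 to 0.004 and -0.43 to 0.092, so that both turned in sign under some alternatives. Regulators counted 6 lower and 4 higher on library totals, and 4 and 4 with the reference genes. Translation factors counted 23 and 3 with the latter, and mitochondrial ribosomal proteins 37 and 6, with 4 higher on library totals. When each library was left out, regulators that rose counted 1 to 2 and translation factors that rose 0 to 1. *Tpt1* turned to 0.25 and 0.40, and *Rps28* to 0.083, under these scalings. The cause was not tested. Depth limits *Rpl39l* in NPCs (9 to 54 reads) and *Rps27* (48 to 116 reads).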
